A study of Mus musculus with 15 samples.

Results

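Metalloproteinases of the Mmp, Adam and Adamts families and their inhibitors of the Timp family were followed in cultured mouse peritoneal macrophages given fatty acid, lipopolysaccharide (LPS, a cell wall component of Gram-negative bacteria) or both. Members were all genes of the authors' value table whose symbol begins with Mmp, Timp, Adam or Adamts and a number, each read by its brightest probe, and they came to 44 of 13676 genes (67 probes). By family these were 10 secreted and 3 membrane-type MMPs, 19 ADAMs, 9 ADAMTSs and 3 TIMPs, that is 41 members of protease families and 3 inhibitors. The cells had been drawn into the peritoneum by thioglycollate, an irritant broth, and were kept as adherent cultures in medium low in serum. RNA came from 4 groups: cells loaded with fatty acid and given LPS (FA+LPS, 4 arrays), cells given LPS alone (LPS, 4 arrays), cells loaded with fatty acid and given vehicle (FA, 4 arrays) and unloaded cells given vehicle (Unstim, 3 arrays). LPS was used at 10 ng/ml for 24 h, and vehicle for the same time. Each array of a group belongs to 1 of 4 independent experiments, and experiment 2 has no Unstim array here. The sources used here do not name the fatty acid, its dose, or the strain and age of the mice.

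The title places the arrays in a study of triglyceride retention in macrophages exposed to agonists of Toll-like receptors, and the comparisons ask what LPS did with and without loading, and what loading did with and without LPS. Signals are log2 intensities of Illumina bead arrays after background correction and quantile normalization over all arrays, so that 1 unit is a doubling. Background on an array was the 95th percentile of its probes outside the authors' value table, a probe above that limit counted as above background, and a gene was tested where this held on at least 3 of the 15 arrays. Differences are given as log2 difference ± SE from limma over 12961 genes, 2-sided, and a gene was called where its Benjamini-Hochberg adjusted p over all these genes was below 0.05. Of the members, 38 were tested, 35 of them of the protease families and 3 TIMPs, and 13 were above background on all arrays. The 6 not tested were Adam18, Adam1b, Adam23, Adamts6, Adamts19 and Adamts20, each above background on 1 or 2 arrays. Macrophage identity was read from 8 markers measured of 9 listed, of which 7, among them Adgre1 (F4/80), Csf1r, Itgam and Lyz2, were above background on all arrays. The array of FA in experiment 1 was dimmer than the rest, with a 95th percentile of log2 signal of 7.77 against 8.53 to 9.57 on the other 14 arrays. In RNA from whole cultures, fewer cells of a type and less RNA per cell cannot be told apart.

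Matrix metalloproteinases are zinc enzymes made as inactive precursors that cut collagens, elastin, gelatin and other proteins outside the cell. ADAMs are membrane proteins, several of which shed cytokines, receptors and adhesion molecules from the surface, while ADAMTSs are secreted and act on the matrix. TIMPs bind the active site of these enzymes, and TIMP2 on the surface enzyme MMP14 also serves as the dock at which MMP2 is activated. Macrophages make a characteristic elastase, MMP12, and release TNF from the surface through ADAM17.

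Among the members, 6 Mmp genes of the value table lie side by side on mouse chromosome 9 (in the order Mmp13, Mmp12, Mmp3, Mmp1a, Mmp10 and Mmp8, with Mmp1b, not in the table, between Mmp12 and Mmp3), and their signals did not move alike with LPS. The bases before 5 of their starts are shown because they share a short motif and so let neighbours that differed be compared. They are RefSeq sequences of build GRCm38.p6 on the plus strand, 5′ to 3′, ending at the last base before the start: Mmp13 at chr9:7272414-7272513, Mmp12 at chr9:7347274-7347373 (the second of its starts), Mmp3 at chr9:7445722-7445821, Mmp1a at chr9:7464041-7464140 and Mmp10 at chr9:7502242-7502341. Capitals mark matches to the AP-1 motif TGANTCA and to the ETS motif AGGAAG, each searched on both strands.
Mmp13: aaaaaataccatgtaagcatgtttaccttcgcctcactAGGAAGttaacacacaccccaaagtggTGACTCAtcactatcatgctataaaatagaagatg
Mmp12: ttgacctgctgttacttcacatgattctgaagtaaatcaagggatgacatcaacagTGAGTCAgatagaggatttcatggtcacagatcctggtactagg
Mmp3: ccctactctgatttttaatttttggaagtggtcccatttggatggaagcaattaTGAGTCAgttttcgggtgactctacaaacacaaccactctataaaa
Mmp1a: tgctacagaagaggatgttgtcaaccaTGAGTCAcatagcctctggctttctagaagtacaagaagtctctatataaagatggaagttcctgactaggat
Mmp10: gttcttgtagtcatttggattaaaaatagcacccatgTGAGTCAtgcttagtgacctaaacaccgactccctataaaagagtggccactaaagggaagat
The AP-1 motif began 35 bases before the start of Mmp13, 46 before that of Mmp3, 63 before Mmp10 and 73 before Mmp1a. It began 44 bases before the second of the 2 starts of Mmp12. No AP-1 match lay in the window of the first start of Mmp12, which held an ETS match, or in that of Mmp8. Over the 250 bases before a start, the motif occurred in 7 of 28 windows of the 26 members that the RefSeq table holds and in 6.75% of 32851 windows of all genes. Of the 7 members with a match, 5 were the neighbouring Mmp genes shown here because they share it, and the others were Adam20 and Adam29. The ETS motif occurred in 11 of the 28, against 29.5% of all windows, and a TATA box (TATAAA) in 7, against 12.4%. All 3 motifs were searched on both strands, and matches may overlap. A match describes the letters and is no shown binding site. Windows were found for 6 of the 9 members called with LPS, and not for Mmp9, Mmp2 and Adamts7.

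The other 3 starts shown are those of the membrane-type enzyme Mmp14 and of both TIMPs that changed with LPS, in opposite directions. Mmp14 lies at chr14:54431448-54431597 and Timp1 at chrX:20870016-20870165, both on the plus strand, and Timp2 at chr11:118355412-118355561 on the minus strand (GRCm38.p6, RefSeq). These stretches hold no AP-1 match, and 1 ETS match, in Timp1.
Mmp14: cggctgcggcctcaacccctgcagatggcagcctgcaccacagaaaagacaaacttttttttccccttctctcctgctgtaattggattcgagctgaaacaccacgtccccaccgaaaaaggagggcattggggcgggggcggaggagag
Timp1: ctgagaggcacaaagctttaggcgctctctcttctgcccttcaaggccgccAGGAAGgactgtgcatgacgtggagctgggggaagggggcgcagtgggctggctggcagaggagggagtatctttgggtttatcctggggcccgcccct
Timp2: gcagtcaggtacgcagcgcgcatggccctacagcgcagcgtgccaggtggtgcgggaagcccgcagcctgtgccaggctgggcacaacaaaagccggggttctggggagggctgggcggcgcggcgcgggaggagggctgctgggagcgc

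LPS changed 9 of the 38 tested members against Unstim, 6 higher and 3 lower. Mmp13 (a collagenase), Mmp14 (the membrane-type enzyme) and Timp1 rose 8.40-fold or more, and Timp2 fell 10.5-fold. Smaller rises were seen for the gelatinases Mmp9 and Mmp2 and for Adamts7, and smaller falls for Adam8 and Mmp12, the macrophage elastase. The members' share called, 23.7%, stands beside 22.3% of all genes (8.99% higher, 13.3% lower). With quantile normalization the families together were therefore called about as often as genes at large. The median log2 difference of the members was -0.000415, against -0.015 over all genes. The groups did not overlap for 12 members, against 29.4% of all genes. Proteases were called in 7 of 35 cases (5 higher, 2 lower) and TIMPs in 2 of 3 (1 higher, 1 lower).

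Mmp13, which cuts fibrillar collagens, had log2 signals of 11.93, 11.69, 12.76 and 13.10 in FA+LPS (experiments 1 to 4), 11.74, 11.59, 12.91 and 12.29 in LPS, 8.01, 7.86, 8.72 and 7.92 in FA, and 8.13, 8.15 and 8.21 in Unstim (experiments 1, 3 and 4). Every array with LPS lay far above every array without it. The difference of LPS from Unstim was 3.97 ± 0.35 (15.7-fold, adjusted p = 8.94e-07), that of FA+LPS from FA 4.24 ± 0.32 (adjusted p = 1.99e-07) and that of FA+LPS from Unstim 4.21 ± 0.35 (adjusted p = 5.64e-07). Its other 2 probes measured 1.98 ± 0.14 (called) and 0.20 ± 0.11 (not called) with LPS alone, with p-values adjusted over all probes.

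Its neighbours on chromosome 9 moved otherwise. Mmp12 had 11.18, 11.22, 10.53 and 11.61 in FA+LPS, 11.22, 10.94, 10.89 and 10.48 in LPS, 12.11, 11.54, 11.53 and 11.14 in FA and 11.81, 11.61 and 11.48 in Unstim. All LPS arrays lay below all Unstim arrays, whereas the FA+LPS and FA arrays overlapped. The difference was -0.75 ± 0.24 for LPS against Unstim (adjusted p = 0.0386) and was not called for FA+LPS against FA (-0.45 ± 0.23, adjusted p = 0.218) or against Unstim (-0.50 ± 0.24, adjusted p = 0.213). Leaving out any 1 of 8 arrays ended the call (adjusted p up to 0.141), as did median scaling in place of quantile normalization (-0.38, adjusted p = 0.664). For the stromelysins Mmp3 and Mmp10, the collagenase Mmp1a and the neutrophil collagenase Mmp8, LPS against Unstim measured 0.08 ± 0.12, 0.02 ± 0.08, 0.01 ± 0.08 and 0.02 ± 0.07, none of them called. The upper 95% limits of these differences were 0.35, 0.18, 0.17 and 0.18. Mmp8 was above background on 7 arrays and Mmp10 on 5, so a change below background would not be seen. The other 2 probes of Mmp3 were called higher with LPS (0.36 ± 0.08 and 0.30 ± 0.07), and were above background on 8 and 9 arrays. Mmp1a has a close copy, Mmp1b, in the same cluster, and whether its probe also reads that copy was not tested.

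**Figure D1:**
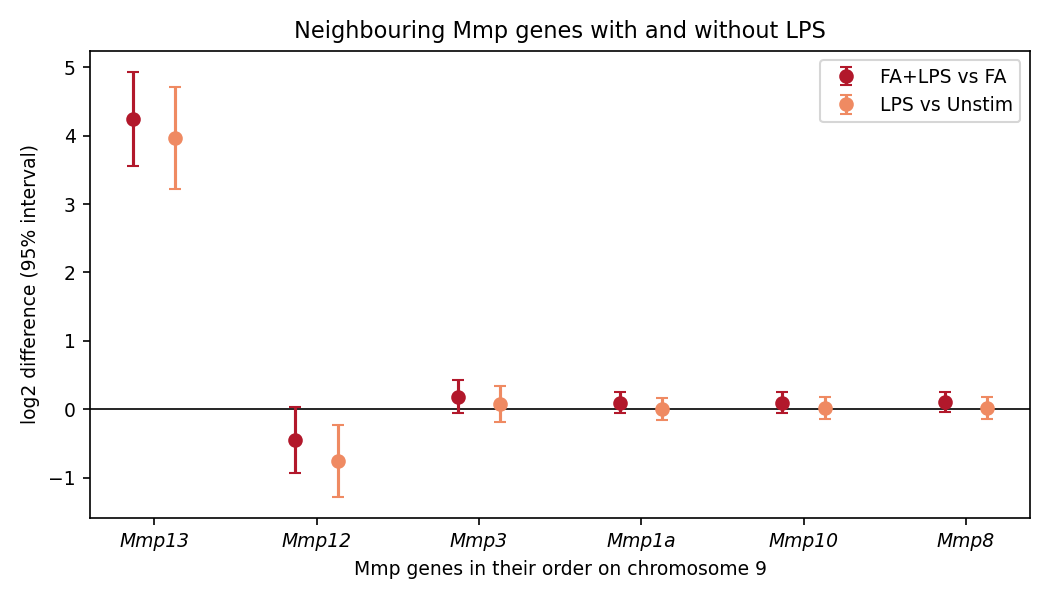
Log2 differences with 95% intervals (y axis) of 6 neighbouring Mmp genes in their order on chromosome 9 (x axis), for FA+LPS against FA and for LPS against Unstim. Mmp13 lies at 4.24 and 3.97, Mmp12 lies below 0 in both with an interval that includes 0 for FA+LPS against FA, and the intervals of the other 4 genes include 0.

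Mmp14, which anchors in the membrane and activates MMP2 and MMP13 from their precursors, had 12.04, 12.16, 12.50 and 12.37 in FA+LPS, 11.61, 11.93, 12.41 and 11.62 in LPS, 8.30, 8.41, 8.57 and 7.82 in FA and 8.31, 8.88 and 8.02 in Unstim. The arrays with and without LPS were as clearly apart as for Mmp13. LPS raised it by 3.49 ± 0.23 over Unstim (11.3-fold, adjusted p = 4.88e-08), and FA+LPS by 3.99 ± 0.21 over FA (adjusted p = 5.12e-09) and 3.87 ± 0.23 over Unstim (adjusted p = 2.08e-08). The other membrane-type members were not called with LPS: Mmp17 measured -0.11 ± 0.08 and Mmp24 -0.36 ± 0.14 (adjusted p = 0.0871). With the experiment as a block, which called 26.8% of all genes, Mmp24 was called lower (-0.44, adjusted p = 0.0140), as it was with the slide as a block (-0.46, adjusted p = 0.0407), and its other 2 probes were not called without that block.

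Both gelatinases were higher with LPS. Mmp9, which is also stored in granules of neutrophils, had 7.42, 8.0, 8.74 and 7.79 in FA+LPS, 6.55, 6.98, 7.69 and 6.77 in LPS, 6.18, 6.31, 6.60 and 6.46 in FA and 6.16, 6.21 and 6.19 in Unstim. Its FA+LPS arrays lay above all arrays without LPS, and its LPS arrays above all Unstim arrays by smaller steps. The differences were 0.81 ± 0.27 for LPS against Unstim (adjusted p = 0.0456), 1.60 ± 0.25 for FA+LPS against FA (adjusted p = 2.66e-04) and 1.80 ± 0.27 for FA+LPS against Unstim (3.48-fold, adjusted p = 2.12e-04). Leaving out any 1 of 11 arrays ended the first of these calls, with adjusted p-values of up to 0.119, and within slides 1 and 3 the difference measured 0.39 and 1.49.

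Mmp2 had 7.28, 6.49, 6.54 and 6.38 in FA+LPS, 6.87, 6.75, 6.55 and 6.38 in LPS, 5.93, 6.04, 6.00 and 5.96 in FA and 5.99, 5.96 and 5.78 in Unstim. It was not well above background on any Unstim array and on 3 of 4 FA arrays, and was above it on all 8 arrays with LPS. Mmp2 was at least 1.52-fold higher in LPS than in Unstim (adjusted p = 0.00621) and at least 1.56-fold higher in FA+LPS than in Unstim (adjusted p = 0.00531). These bounds set the mean with LPS against the lowest signal above background on the Unstim arrays. FA+LPS was also called higher than FA (adjusted p = 0.00555), and since 1 of 4 FA arrays was above background, the size of that difference is not given. The remaining secreted members, Mmp19 and Mmp23, measured 0.03 ± 0.08 and -0.11 ± 0.09 with LPS and were not called.

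Markers of other cell types, among them neutrophils, mesothelial cells and fibroblasts, which also make collagenases, gelatinases and TIMPs, were read beside these results. Of 7 neutrophil markers measured of 10 listed, 3 were called higher with LPS against Unstim and 1 lower, beside 8.99% and 13.3% of all genes: S100a8 (1.09 ± 0.22, adjusted p = 0.00182), Csf3r (0.38 ± 0.13, adjusted p = 0.0417) and Camp (0.33 ± 0.09, adjusted p = 0.0145) higher and Ltf (-0.53 ± 0.12) lower. Csf3r was not called with median scaling (adjusted p = 0.315) or with the slide as a block (0.0799). Its call was also lost with the mean of its probes (0.0622) and without any 1 of 8 arrays. Camp was not called with median scaling (0.0642) or without Unstim replicate 1 (0.0527). With the experiment as a block and median scaling together, S100a8, Csf3r and Camp were not called (adjusted p = 0.111, 0.298 and 0.0975). The median log2 difference of the 7 was 0.0174. Their summed linear signal, in which bright genes weigh most, ran from 1490 to 2380 in FA+LPS, 1040 to 1430 in LPS, 750 to 829 in FA and 717 to 825 in Unstim. S100a8 and Csf3r were above background on 15 arrays, Elane on 13, Ltf on 9, Camp on 6 and Mpo and Cxcr2 on 4 each. Of 9 mesothelial and fibroblast markers measured of 12 listed, 1, Dcn (2.26 ± 0.23), was called. The median difference of these 9 was -0.0145. Their sums ran from 855 to 1260 in FA+LPS, 926 to 1170 in LPS, 616 to 650 in FA and 623 to 660 in Unstim. Above background were Dcn on 15 arrays, Upk3b and Col1a2 on 14 each, Pdgfra on 11, Col3a1 on 6, Col1a1 on 5 and Msln, Lum and Pdgfrb on 3 each. Among 5 dendritic cell markers tested, Batf3 was called higher (2.18 ± 0.28), and the median difference of the 5 was 0.0899. The sums of that list ran from 629 to 946 in FA+LPS, 588 to 1100 in LPS, 398 to 433 in FA and 390 to 425 in Unstim. Of 3 eosinophil and mast cell markers Kit was higher (at least 2.03-fold, adjusted p = 0.00808), of 3 B cell markers Cd22 was lower (-0.43 ± 0.10), and Il7r, the 1 marker of T and NK cells on the table, was lower (-1.10 ± 0.27). Cd22 and Il7r were not called with median scaling (adjusted p = 0.221 and 0.293), nor was Il7r without Unstim replicate 1 (0.0523). The sums of the 8 macrophage markers ran from 21900 to 35700 in FA+LPS, 19700 to 26700 in LPS, 25400 to 28400 in FA and 26000 to 28600 in Unstim. Among the macrophage markers, 3 were called higher with LPS (Adgre1, Cd14 and Fcgr1) and 3 lower, Tyrobp (-1.69 ± 0.26), Mertk (-0.85 ± 0.13) and Lyz2 (-0.71 ± 0.17), beside the falls of Timp2, Mmp12 and Adam8. Tyrobp, Mertk, Lyz2 and Fcgr1 were not called with median scaling (adjusted p = 0.157, 0.304, 0.162 and 0.126), nor was Fcgr1 without any 1 of 9 arrays (adjusted p up to 0.119). The part of changes in the cells present in the rises of Mmp13, Mmp14, Mmp9, Mmp2 and Timp1 and in these falls was not tested.

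Of the ADAMs, 1 of 16 tested was called with LPS against Unstim. Adam8, a leukocyte sheddase of adhesion molecules, had 7.40, 7.21, 8.17 and 7.84 in FA+LPS, 7.63, 7.33, 7.84 and 7.63 in LPS, 8.71, 8.53, 9.37 and 8.79 in FA and 8.15, 8.59 and 8.34 in Unstim. LPS arrays lay below all Unstim arrays and FA+LPS arrays below all FA arrays, with 1 FA+LPS array among the Unstim values. The difference of LPS from Unstim was -0.75 ± 0.23 (adjusted p = 0.0250), that of FA+LPS from Unstim -0.70 ± 0.23 (adjusted p = 0.0418) and that of FA+LPS from FA -1.19 ± 0.21 (adjusted p = 6.45e-04). With median scaling none of these was called (adjusted p = 0.376, 0.493 and 0.124). The first was also lost without LPS replicate 2, Unstim replicate 3 or Unstim replicate 4 (adjusted p = 0.0697, 0.116 and 0.0669), and the second without any 1 of 8 arrays (adjusted p up to 0.176), with the slide as a block (0.0609) and with the mean of its probes (0.0570). Within slides 1 and 3 the second measured -0.74 and -0.30. Its other probe measured -0.78 ± 0.28 with LPS alone, not called, and -1.22 ± 0.26 for FA+LPS against FA, called. Adam15 measured -0.58 ± 0.23 on its brightest probe for LPS against Unstim (adjusted p = 0.0910) and was called with the experiment as a block (-0.55, adjusted p = 0.0233), while its 4 other probes measured -0.05 to 0.07.

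Adam17, the enzyme that releases TNF from the cell surface, was called where cells were both loaded and given LPS. It had 9.41, 9.33, 9.18 and 8.96 in FA+LPS, 8.84, 8.61, 8.85 and 8.42 in LPS, 9.0, 8.58, 8.37 and 8.59 in FA and 8.86, 8.75 and 8.64 in Unstim. The FA+LPS arrays lay above all LPS and Unstim arrays, and the LPS arrays overlapped those of Unstim. LPS against Unstim measured -0.07 ± 0.15 (adjusted p = 0.825), FA+LPS against FA 0.58 ± 0.14 (adjusted p = 0.00557) and FA+LPS against Unstim 0.47 ± 0.15 (adjusted p = 0.0370). The last was lost without any 1 of 6 arrays (adjusted p up to 0.148), with median scaling (0.166) and with the mean of its probes (0.0722). Its other probe measured 0.13 for LPS against Unstim, 0.38 for FA+LPS against FA and 0.33 for FA+LPS against Unstim and was not called. Adam10, the other main sheddase, was above background on 9 arrays and measured -0.07 ± 0.07 with LPS. Of the other 13 tested ADAMs, several of which (Adam4, Adam7, Adam24, Adam29 and Adam32) are known from testis or epididymis, none was called in any comparison without a block.

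Adamts7, which cuts a cartilage matrix protein, was the 1 called of 6 tested ADAMTSs. It had 6.90, 6.63, 6.77 and 6.74 in FA+LPS, 6.52, 6.49, 6.45 and 6.47 in LPS, 5.88, 6.10, 6.01 and 6.12 in FA and 6.13, 6.03 and 6.06 in Unstim. All FA+LPS arrays lay above all LPS arrays, and all LPS arrays above those of both groups without it. The signals are near the background limit, and 13 arrays were above it. LPS against Unstim gave 0.41 ± 0.07 (adjusted p = 7.24e-04), FA+LPS against FA 0.73 ± 0.07 (adjusted p = 1.46e-06) and FA+LPS against Unstim 0.68 ± 0.07 (adjusted p = 7.60e-06). The first was lost with the experiment as a block and median scaling together (0.42, adjusted p = 0.0677). The other tested ADAMTSs (the aggrecanases Adamts1 and Adamts4, and Adamts10, Adamts16 and Adamts17) lay between -0.15 and 0.05 with LPS and were not called.

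The inhibitors Timp1 and Timp2 went opposite ways. Timp1, which inhibits most secreted MMPs and MMP14 only weakly, had 8.75, 8.52, 9.41 and 9.87 in FA+LPS, 9.32, 9.35, 9.71 and 9.96 in LPS, 6.74, 6.43, 6.89 and 6.49 in FA and 6.46, 6.71 and 6.37 in Unstim. Timp2, the partner of MMP14 and MMP2, had 9.58, 8.81, 8.72 and 8.39 in FA+LPS, 8.53, 7.97, 7.60 and 7.64 in LPS, 11.55, 11.27, 11.21 and 11.48 in FA and 11.38, 11.30 and 11.32 in Unstim. For both genes no array with LPS overlapped an array without it. Timp1 rose by 3.07 ± 0.26 with LPS against Unstim (8.40-fold, adjusted p = 7.11e-07), by 2.50 ± 0.24 in FA+LPS against FA (adjusted p = 2.57e-06) and by 2.63 ± 0.26 in FA+LPS against Unstim (adjusted p = 4.10e-06), and its other probe gave 3.02, 2.62 and 2.60. In the same comparisons Timp2 fell by 3.40 ± 0.24 (10.5-fold, adjusted p = 1.22e-07), fell by 2.50 ± 0.23 (5.66-fold, adjusted p = 1.22e-06) and fell by 2.46 ± 0.24 (5.49-fold, adjusted p = 3.85e-06). Timp3, the matrix-bound inhibitor of ADAM17, had 6.09, 6.19, 6.36 and 6.05 in FA+LPS, 6.43, 6.24, 6.43 and 6.19 in LPS, 6.00, 6.16, 6.23 and 6.09 in FA and 6.22, 6.26 and 6.03 in Unstim. Its groups overlapped and no comparison was called (0.15 ± 0.09 for LPS against Unstim, adjusted p = 0.325).

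**Figure D2:**
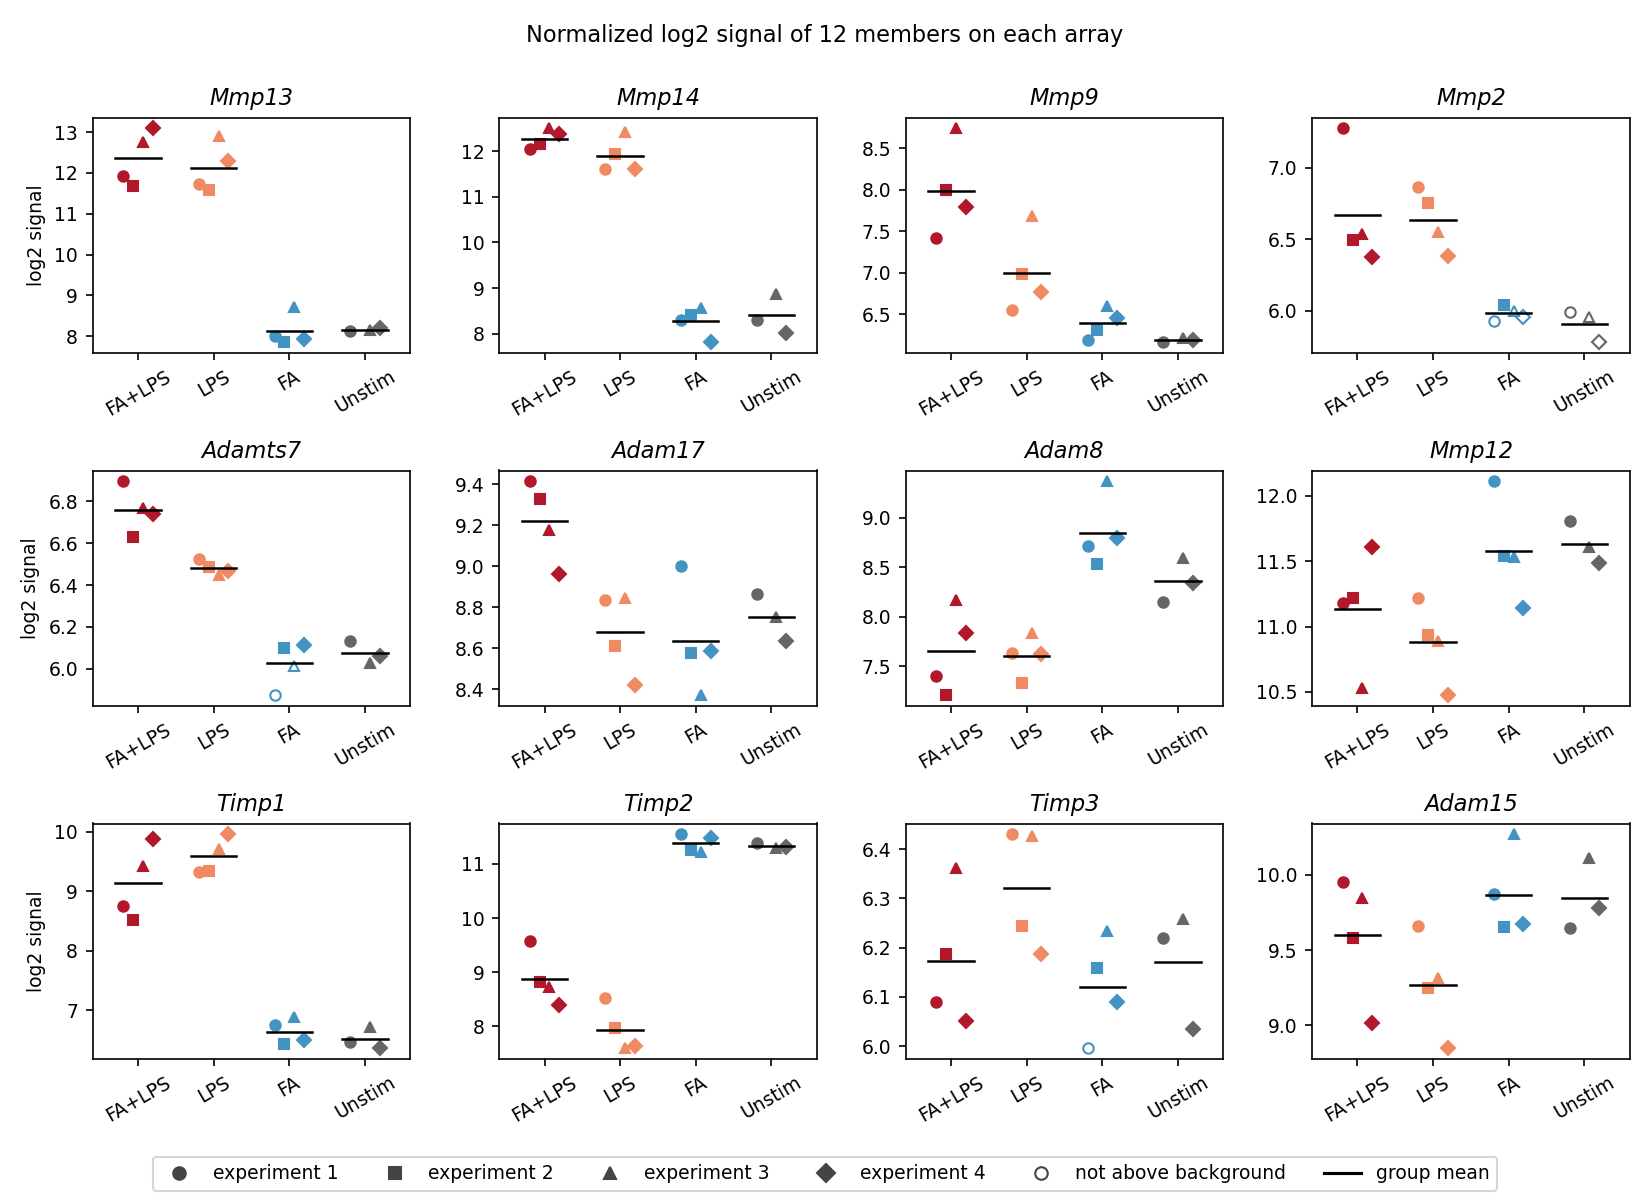
Log2 signal (y axis) of 12 members on each array by group (x axis), with symbols for the experiment, open symbols for arrays not above background and bars for group means. Mmp13, Mmp14 and Timp1 are high and Timp2 low on the 8 arrays with LPS. The FA+LPS arrays have higher means than those of LPS for all members shown but Timp1 and Timp3.

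LPS in loaded cells gave calls for 9 members against FA (7 higher, 2 lower), beside 19.8% of all genes (8.4% higher, 11.4% lower), with 9 members not overlapping, against 21.9% of all genes. FA+LPS against Unstim also called 9 (7 higher, 2 lower), beside 18.3% of all genes (7.57% higher, 10.8% lower), with 10 members not overlapping, against 26.3%. Both comparisons share their FA+LPS arrays, and each called Mmp13, Mmp14, Mmp9, Mmp2, Adamts7, Adam17 and Timp1 higher and Adam8 and Timp2 lower. With the experiment as a block the same genes were called in both, beside 24.8% of all genes for FA+LPS against FA and 22.9% for FA+LPS against Unstim. Over all comparisons without a block 10 members were called at least once and 28 in none. With median scaling, fewer genes were called and more of them were higher: 927 genes with LPS against Unstim, 60.0% of them higher against 40.3% with quantile normalization. The shares higher were 75.0% against 42.4% for FA+LPS against FA and 64.5% against 41.3% for FA+LPS against Unstim. Mmp2 was not called under median scaling in LPS against Unstim, FA+LPS against FA or FA+LPS against Unstim (adjusted p = 0.0932, 0.0585 and 0.0674).

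**Figure D3:**
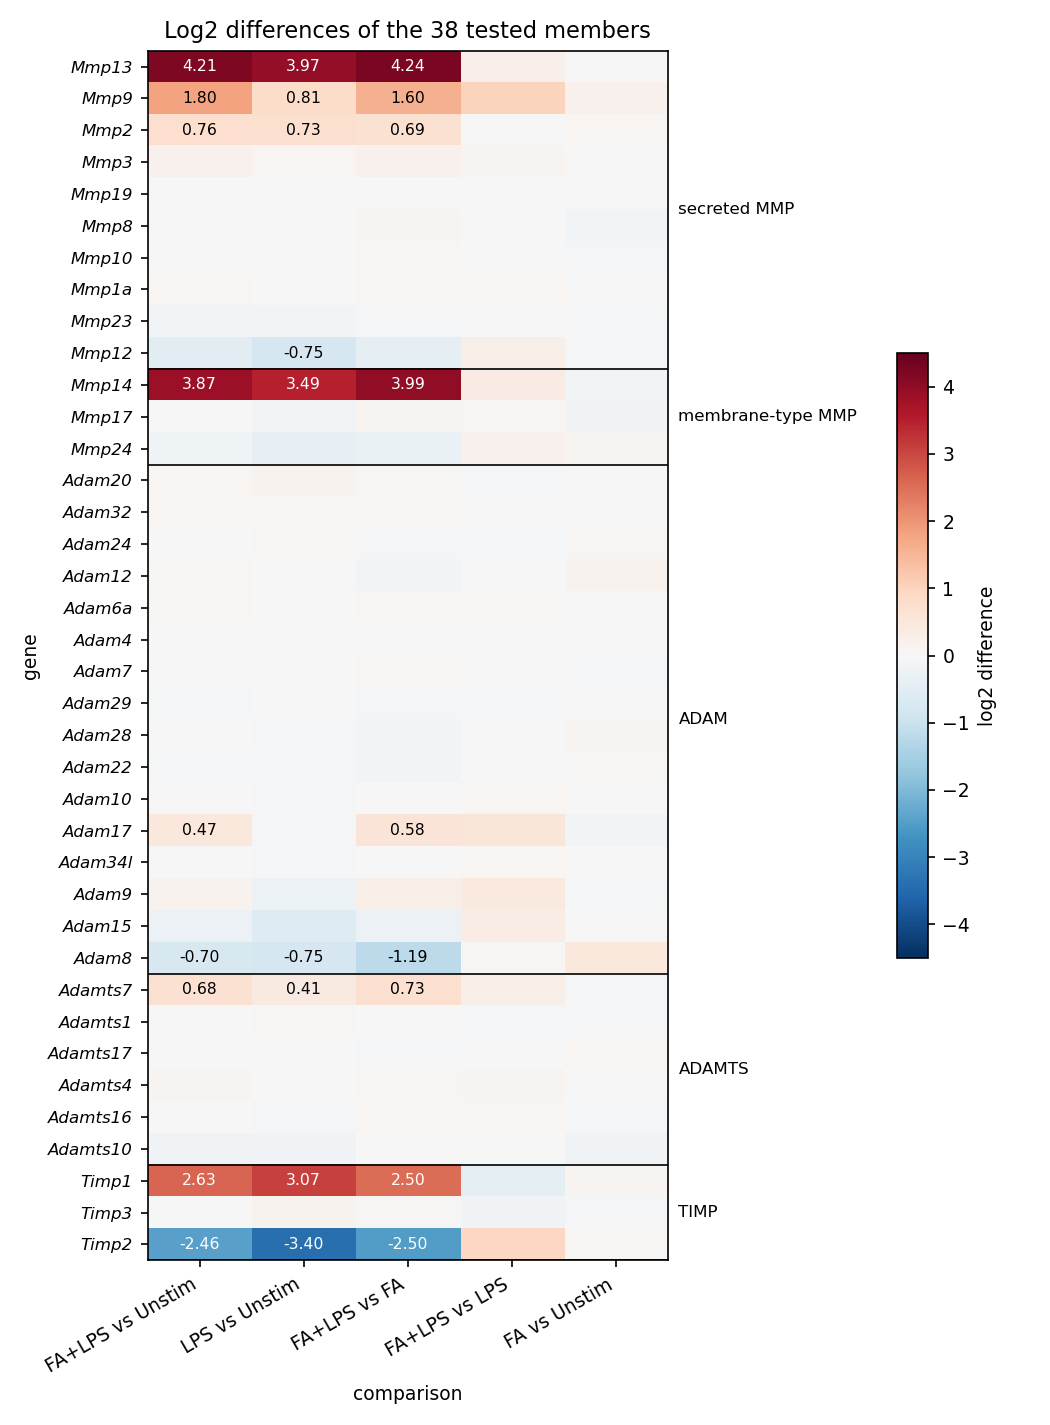
Log2 differences (colour) of the 38 tested members (rows, by family) in 5 comparisons (columns), with values printed where a member was called without a block. The 3 columns with LPS set against no LPS hold all the printed values, and the columns of FA+LPS against LPS and FA against Unstim hold none.

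Fatty acid loading in cells with LPS changed no member past the threshold without a block for the experiment, and 3 members with it. Of the 38 tested, 0 were called in FA+LPS against LPS by limma with the group as its only term, beside 0.687% of all genes (0.378% higher, 0.309% lower), and 5 had an unadjusted p below 0.05, all of them higher, as had 1270 of the 12961 genes in either direction. These were Timp2, Adamts7, Adam17, Mmp9 and Adam9. The members' median was 0.0365, against 0.00661 over all genes, and 27 of 38 were above 0, as were 6845 of the 12961 genes. The groups did not overlap for 3 members, Adam17, Adam9 and Adamts7, against 4.48% of all genes. Differences and adjusted p-values were 0.94 ± 0.23 (0.0774) for Timp2, 0.28 ± 0.07 (0.0813) for Adamts7, 0.54 ± 0.14 (0.0927) for Adam17, 0.99 ± 0.25 (0.101) for Mmp9 and 0.44 ± 0.14 (0.198) for Adam9.

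Taken within experiments, these differences all had 1 sign. The 5 genes were picked by their p over the same arrays, so the shared sign is no separate support. The share of all genes with 1 sign was not computed. FA+LPS minus LPS in experiments 1 to 4 was 1.05, 0.84, 1.12 and 0.75 for Timp2. For Mmp9 it was 0.87, 1.01, 1.06 and 1.02, and for Adam17 0.58, 0.72, 0.33 and 0.54. Adamts7 gave 0.37, 0.14, 0.32 and 0.27, and Adam9 0.44, 0.60, 0.14 and 0.59. With the experiment as a block, 3 members were called, all higher: Timp2 (0.94 ± 0.16, adjusted p = 0.00978), Mmp9 (0.99 ± 0.17, adjusted p = 0.00899) and Adam17 (0.54 ± 0.10, adjusted p = 0.0140), beside 2.65% of all genes. The same 3 were called with the slide as a block (adjusted p = 0.00954, 0.0189 and 0.0350), beside 1.29% of all genes. Timp2 and Mmp9 have 1 probe each. Adam17 has 2, and its second probe was not fitted with a block, so its call rests on 1 probe. Without a block that second probe gave smaller differences for FA+LPS against FA and FA+LPS against Unstim, as given above, and was not called there. Adamts7 (adjusted p = 0.0701) and Adam9 (adjusted p = 0.110) were fitted but not called with the experiment as a block. None of the 5 was called with the block and median scaling together. Timp2 in FA+LPS stood at 8.88 ± 0.50, against 7.94 ± 0.43 in LPS, 11.38 ± 0.16 in FA and 11.33 ± 0.04 in Unstim (mean ± SD, n = 4, 4, 4 and 3). Timp1 lay the other way, at -0.57, -0.83, -0.29 and -0.08 in experiments 1 to 4, and was not called (-0.44 ± 0.24, adjusted p = 0.632). The neutrophil marker S100a8 was also higher in FA+LPS than in LPS (1.11 ± 0.20, adjusted p = 0.0186). Its call was lost without any 1 of 5 arrays (adjusted p up to 0.0661) and with median scaling (adjusted p = 0.752). S100a8 was the 1 marker called of the 7 neutrophil markers tested, beside 0.687% of all genes. The median difference of the 7 was -0.0168. The part of neutrophils in the difference of Mmp9 was not tested.

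**Figure D4:**
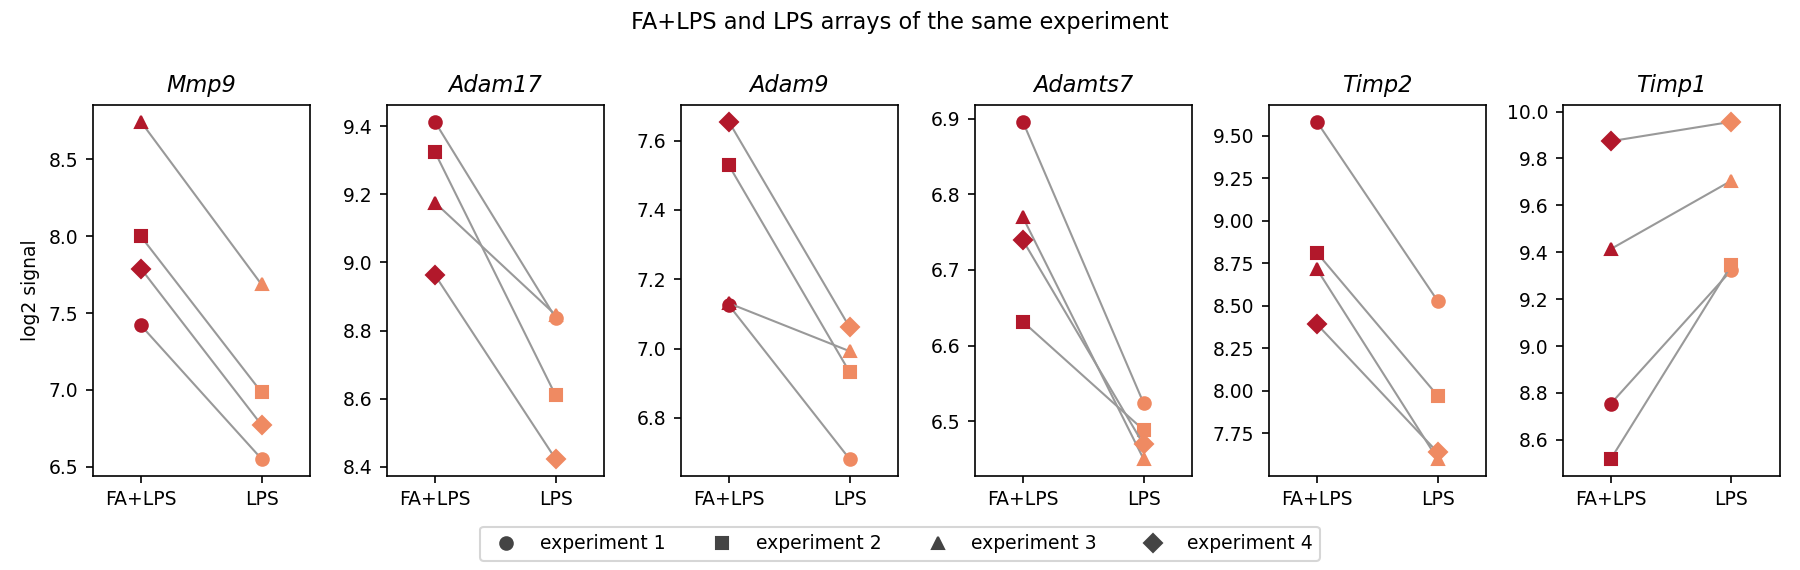
Log2 signal (y axis) of 6 members in FA+LPS and LPS (x axis), with lines joining arrays of the same experiment. Mmp9, Adam17, Adam9, Adamts7 and Timp2, picked by their unadjusted p over these same arrays, are higher in FA+LPS in all 4 experiments. Timp1 is lower in all 4.

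Loading without LPS called 0 of 38 members by limma, beside 0.00772% of all genes, and 3 had an unadjusted p below 0.05, as had 373 of the 12961 genes. These were Adamts10 (-0.15 ± 0.06), Mmp17 (-0.17 ± 0.08) and Adam8 (0.49 ± 0.23), each with an adjusted p of 1.00. Without FA replicate 3 the difference of Adam8 was 0.32. The groups did not overlap for 2 members, against 4.88% of all genes. Mmp17 and Adamts10 were each above background on 4 of the 15 arrays. Adam8, picked by its p over the same arrays, was higher in FA than in Unstim in each of the 3 experiments with both arrays (by 0.57, 0.78 and 0.45). It was not called with the experiment as a block either (0.61 ± 0.10, adjusted p = 0.112), where 0.0231% of all genes were. The 95% intervals of FA against Unstim ran from 0.01 to 0.97 for Adam8 and from -0.43 to 0.20 for Adam17. For the TIMPs the differences were 0.12 ± 0.26 (Timp1), 0.04 ± 0.24 (Timp2) and -0.05 ± 0.09 (Timp3).

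The interaction, that is the loading effect with LPS minus that without it, called 0 of 38 members by limma, beside 0.0463% of all genes (0.0309% higher, 0.0154% lower), and 5 had an unadjusted p below 0.05, as had 630 of the 12961 genes. The 3 smallest were those of Adam17 (0.66 ± 0.20, adjusted p = 0.586), Adamts7 (0.33 ± 0.10, adjusted p = 0.588) and Timp2 (0.90 ± 0.33, adjusted p = 0.835). A difference of the loading effect between cells with and without LPS was therefore not shown for any member. With the experiment as a block 0 members were called as well, against 0.154% of all genes.

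Genes that act on these enzymes, or on which they act, were counted from lists, whose counts stand beside 22.3% of all genes called with LPS against Unstim (8.99% higher, 13.3% lower). Of 10 proprotein convertases and ADAM partners tested, 2 were higher and 2 lower with LPS against Unstim. Tspan14, a tetraspanin that carries ADAM10, fell by 2.41 ± 0.12, and Tspan17, of the same group, fell by 0.72 ± 0.14, a call lost with median scaling (adjusted p = 0.569). The rhomboid-like carriers of ADAM17, Rhbdf1 and Rhbdf2, rose by 0.92 ± 0.18 and 0.65 ± 0.09, whereas Adam17 itself was not called. All 4 were called in the same direction in FA+LPS against FA, at -2.39 (Tspan14), -0.53 (Tspan17), 0.99 (Rhbdf1) and 0.66 (Rhbdf2).

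Of 20 tested surface proteins and ligands that ADAM10 or ADAM17 shed, 7 were higher and 4 lower with LPS, again beside 8.99% and 13.3% of all genes, a background that holds for the other lists too. The largest differences were those of the cytokine gene Tnf (4.77 ± 0.21), the receptor kinase gene Axl (3.38 ± 0.36), the chemokine gene Cxcl16 (2.97 ± 0.10) and the lipid receptor gene Trem2 (-2.73 ± 0.17). Of 12 matrix substrates, 1 was higher (Col4a2, 0.59 ± 0.12) and 1 lower (fibronectin, Fn1, -1.73 ± 0.37). Of 5 other inhibitors, clearance receptors and inducers, the protease inhibitor Serpinb2 rose by 5.75 ± 0.35 and Lrp1, the receptor that clears MMPs and TIMPs, fell by 0.45 ± 0.09. Reck, the membrane inhibitor, measured 0.05. In the plasminogen system 1 of 5 was higher, the urokinase receptor Plaur (1.32 ± 0.18), and 1 lower, Plgrkt (-0.83 ± 0.12). The falls of Lrp1, Plgrkt and Fn1 were not called with median scaling (adjusted p = 0.538, 0.416 and 0.0552). Of 9 AP-1 and ETS factors, Ets2 (1.87 ± 0.20) and Junb (1.46 ± 0.28) were higher and Jun (-1.75 ± 0.16) lower. No gene of these 6 lists was called in FA+LPS against LPS or in FA against Unstim.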

How the data were processed

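Total RNA of 15 cultures was hybridised as biotin-labelled cRNA to 1-colour Illumina arrays, per the labels' protocols. The authors deposited log2 signals of 45281 probes, not normalized between arrays, and a value table of log2 values for 25784 of them. That table equals a quantile normalization of the signals over its probes to within 0.000949, with a median of 6.03 in every column. The sources used here name no software for these steps.

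The signals were back-transformed, corrected with normexp (offset 50), quantile normalized over all probes and fitted in limma 3.58.1 (R 4.3.3) with the group as the only term (11 residual and 3.20 prior degrees of freedom). Probe names came from GEO's platform annotation: 21476 probes with a value had 1 symbol and 10 several, and 4298 are unnamed here. The 19497 probes not retained by the authors set the background. The fit was tested on simulated data that had independent noise on each array and no effect of the experiment. That test therefore cannot show how the fit behaves on paired arrays. Precision is limited by the number of arrays. The highest correlation of 2 arrays within a group was 0.992, and no arrays were identical.

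Members, gene lists and tests were chosen with earlier results of these data known. Named are all members called in any comparison, all TIMPs, the 3 smallest p-values in FA against Unstim, FA+LPS against LPS and the interaction, up to 4 called genes per list, and, chosen after their values were seen, Mmp24, Adam15, Adam9, Adam10, the chromosome 9 neighbours and the unchanged members named in passing.

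The labels' experiment number marks an independent experiment, so equal numbers pair arrays. Deviations from the group means of arrays of 1 experiment correlated at 0.044 to 0.805 (median 0.222, 17 of 21 pairs over 0.1), and those of different experiments at -0.519 to 0.182 (median -0.0745, 63 pairs). The LPS and FA+LPS arrays of the same experiment correlated at 0.805, 0.699, 0.56 and 0.708 in experiments 1 to 4. The fit with the group as its only term does not use this pairing. Alternatives were the experiment or the slide as a block, median scaling, no background correction, the authors' table, other filters, the mean of a gene's probes and leaving out each array. Slides, read from the labels, each held more than 1 group. A sequence table of RefSeq (GRCm38.p6) gave the bases before gene starts, and 18 members had no entry in it.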

Additional observations from a re-analysis of the deposited data

Results flagged for a closer look

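In 45 groups of 4 arrays examined (15 members), 1 array stood far from the other 3 in 2 cases, and chance alone does so in about 1 group in 20. Mmp17 measured 5.73 on FA replicate 4, against 5.94 to 5.95 on the other FA arrays. Mmp24 measured 7.66 on FA+LPS replicate 2, against 7.03 to 7.06 on the other FA+LPS arrays.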

How the results depend on the processing

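Of 60 called values of named genes, 60 kept their call with a replicate block, without background correction, in the authors' table and under both other filters, 58 with the slide as a block, 57 with the mean of all probes, 39 with median scaling and 38 with median scaling and the block (an alternative chosen after seeing the data, as was the block in the authors' table). Members called with LPS against Unstim numbered 9 (22.3% of all genes), 6 with median scaling (7.15%) and 5 with the block and median scaling (6.76%). In FA+LPS against LPS they numbered 0 (0.687% of all genes). They numbered 3 with the replicate block (2.65%), with the slide as a block (1.29%) and with the block in the authors' table (2.82%). Leaving out 1 array gave 6 to 10 members with LPS against Unstim (17.7% to 23.2% of all genes) and 7 to 9 in FA+LPS against Unstim (14.1% to 19.4%). It gave 9 to 10 in FA+LPS against FA (17.6% to 20.9%) and 0 to 2 in FA+LPS against LPS (0.44% to 1.47%). The last were Adam17 and Adamts7 without FA replicate 1, Timp2 without LPS replicate 1, Mmp9 without FA+LPS replicate 1 or LPS replicate 3, and Adam17 and Timp2 without FA+LPS replicate 4. Over all genes, median scaling called 927 genes with LPS against Unstim (2893 otherwise), 764 in FA+LPS against Unstim (2376), 925 in FA+LPS against FA (2567), 6 in FA+LPS against LPS (89, of which 55.1% were higher, against 33.3%) and 0 for the interaction (6). The replicate block called 344 genes in FA+LPS against LPS, 3 in FA against Unstim (1) and 20 for the interaction, and the slide block 167 and 1 in FA+LPS against LPS and the interaction. Leaving out 1 array gave 57 to 191 genes in FA+LPS against LPS (most without FA+LPS replicate 4, fewest without FA+LPS replicate 2) and 1 to 19 for the interaction (most without FA+LPS replicate 4). Apart from the block results in the report, the replicate block changed no other call of a named member. Uncalled differences of TIMPs changed sign. For FA against Unstim, Timp2 (0.04) measured -0.017 with the slide as a block, -0.15 with median scaling, -0.19 with block and median scaling, and -0.012 to 0.098 leaving out 1 array, and Timp3 (-0.05) measured 0.0037 with the slide as a block and 0.0078 with the mean of its probes. For FA+LPS against Unstim, Timp3 (0.0013) measured -0.026 with median scaling, -0.032 with the block and median scaling, -0.000606 in the authors' table and -0.068 to 0.044 leaving out 1 array, and for FA+LPS against FA (0.05) it measured -0.011 to 0.093 leaving out 1 array. The cause was not tested.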
